A study of Mus musculus with 2 samples.

Results

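The 10 genes of the NF-κB core described here are the 5 subunits Nfkb1, Nfkb2, Rela, Relb and Rel and the 5 inhibitors Nfkbia, Nfkbib, Nfkbie, Nfkbiz and Tnfaip3, among 20642 genes named on the arrays. They were taken as every non-control probe whose accession belongs to 1 of these genes and whose spots carried no outlier flag on either array, which gave 14 probes, each on a single spot. Of the 10 genes, 9 were well above background on both arrays (13 of 14 probes), and the single probe of Rel was not. Red pulp macrophages, the resident phagocytes of the mouse spleen, had been sorted as F4/80-positive, CD11b-low cells from SIRPα-KO mice, which lack the inhibitory myeloid receptor SIRPα, and from WT mice. Each genotype had 1 one-colour array, hybridised with globin-depleted RNA from cells of 5 pooled mice. The labels used here give no strain, age or treatment for either group, and both groups passed through the same tissue digestion, red cell lysis and sort. With 1 array per genotype there is no replicate and no test across samples. An error written after ± combines the signal errors that the scanner software gave for the 2 spots, on the log2 scale; it covers how well a spot was read, not how animals or pools vary.

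NF-κB is a family of dimeric transcription factors that drive inflammatory and survival genes in macrophages. In resting cells the dimers are held in the cytoplasm by IκB proteins; signals from Toll-like, interleukin-1 and TNF receptors activate the IKK kinases, which mark IκB for destruction and free the dimers. Several of the genes that the freed dimers switch on, among them Nfkbia and Tnfaip3, encode inhibitors of the pathway, so their transcripts serve as a feedback brake and are commonly read as a trace of NF-κB activity.

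The targeted gene did not bear out the genotype label. The single Sirpa probe had a signal of 1006 on the array labelled SIRPα-KO and 795 on the WT array, a scaled difference of 0.51 ± 0.20 (log2). Whether this probe lies inside the deletion is not stated in the labels or files, and one outside it checks nothing, so directions rest on the labels alone. A negative difference means that the array labelled SIRPα-KO had the lower value, after the signal of each array was divided by its 75th percentile (89.1 for the array labelled SIRPα-KO, 100.2 for WT). Well above background were 65.4% of probes on the array labelled SIRPα-KO and 71.5% on the WT array. Of the macrophage markers, Adgre1, which encodes F4/80, and Csf1r, the receptor for colony-stimulating factor 1, were bright on both arrays. Adgre1 had 10406 on the array labelled SIRPα-KO and 6830 on the WT array at its brighter probe (0.78 ± 0.20), while a further probe differed by -0.47, and Csf1r had 6697 on the array labelled SIRPα-KO and 6601 on the WT array. Spic, the transcription factor these macrophages depend on, was at 53.6 on each array, while Mertk, a receptor for dying cells, and Itgad, an integrin subunit, were not well above background on either.

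Promoter sequence was available for 7 of the 10 genes in 10 windows (Nfkb2 had 3 transcript starts and Tnfaip3 had 2), as the 250 bases before the RefSeq transcript start (build GRCm38.p6, used for sequence only). The 4 windows below belong to Rela, the subunit with the largest difference, and to the inhibitors Nfkbia, Tnfaip3 and Nfkbie. They are written 5′ to 3′ on the strand of the gene, and capitals mark matches to the κB consensus, the DNA element that NF-κB dimers bind, or to the 9 bases GGANTTTCC, searched on both strands. In Nfkbia the downstream match to the 9 bases lies within the κB consensus match.
Rela, chr19:5637291-5637540, plus strand: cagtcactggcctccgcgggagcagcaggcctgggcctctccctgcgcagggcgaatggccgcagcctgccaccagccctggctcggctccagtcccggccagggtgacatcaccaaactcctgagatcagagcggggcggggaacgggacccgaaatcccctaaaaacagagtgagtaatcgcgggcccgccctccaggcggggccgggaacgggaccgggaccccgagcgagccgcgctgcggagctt
Nfkbia, chr12:55492648-55492897, minus strand: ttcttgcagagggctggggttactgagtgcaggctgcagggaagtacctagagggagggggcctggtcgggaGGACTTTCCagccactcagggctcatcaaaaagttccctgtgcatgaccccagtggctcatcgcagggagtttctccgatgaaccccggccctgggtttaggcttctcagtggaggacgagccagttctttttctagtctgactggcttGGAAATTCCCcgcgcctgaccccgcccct
Tnfaip3, chr10:19015411-19015660, minus strand: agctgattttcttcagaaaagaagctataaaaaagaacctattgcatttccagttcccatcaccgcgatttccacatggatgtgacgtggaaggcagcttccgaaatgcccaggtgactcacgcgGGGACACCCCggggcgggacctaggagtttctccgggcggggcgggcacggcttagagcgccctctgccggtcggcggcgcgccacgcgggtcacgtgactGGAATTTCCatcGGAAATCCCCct
Nfkbie, chr17:45555450-45555699, plus strand: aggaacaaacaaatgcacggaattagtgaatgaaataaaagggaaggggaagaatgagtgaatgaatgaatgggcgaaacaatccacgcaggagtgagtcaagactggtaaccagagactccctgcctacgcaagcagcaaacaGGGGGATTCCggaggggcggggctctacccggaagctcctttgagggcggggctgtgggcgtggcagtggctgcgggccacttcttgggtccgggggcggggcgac

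Of the 10 windows, 7 held at least 1 match to the κB consensus: the windows of Rel, Nfkbia and Nfkbie, all 3 of Nfkb2 and 1 of 2 of Tnfaip3, the one shown. The other Tnfaip3 window, at chr10:19011964-19012213, had no match to either. Among all 32851 mouse promoter windows of this length, 7.25% held one. GGANTTTCC lay in 3 of the 10 windows, of Nfkb2, Nfkbia and Tnfaip3 (the one shown), and in 1.07% of all windows. In the Tnfaip3 window shown it lay 24 to 16 bases before the transcript start, next to a consensus match at 12 to 3 bases. Rela and Nfkbib had no match to either in these windows, which says only that these letters are absent there. The matches describe sequence, and binding was not measured.

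The subunits split into a pair with lower signal on the array labelled SIRPα-KO and another pair that differed by about its error. Of 4 measured subunits, Rela and Nfkb1, which form the main dimer of the canonical pathway, were at least 2-fold lower, Nfkb1 only at the brighter of its 2 probes. Relb and Nfkb2, the pair of the alternative pathway, were not. The share of all 15833 measured genes past the same limit was 5.53% on the lower side and 3.11% on the higher side. The lower share rose with signal. Among genes of like signal (10 classes, described below) it was 18.7% for Rela and 11.2% for Nfkb1. For Relb and Nfkb2 it was 5.75% and 2.84%. In a sorted pool, fewer cells that express a gene and less RNA per cell cannot be told apart.

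Rela encodes the transactivating subunit of the canonical dimer. Its probe had a signal of 546 on the array labelled SIRPα-KO and 1589 on the WT array. After scaling it was 2.59-fold lower, a difference of -1.37 ± 0.20 (log2), or 6.72 times its spot error. It was the lowest of the member genes.

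Nfkb1 encodes the precursor of the DNA-binding partner of RelA. Its brighter probe had 360 on the array labelled SIRPα-KO and 947 on the WT array and was 2.34-fold lower (-1.23 ± 0.20). Its other probe was dim, with 14.0 on the array labelled SIRPα-KO and 18.7 on the WT array, and differed by -0.25 ± 0.33. The differences at these probes differed by -0.98 ± 0.38 (brighter minus dimmer, log2), 2.54 times the joint error, so the size for Nfkb1 depends on the probe: both lay below 0, and only the brighter one was at least 2-fold lower. Such disagreement was common on these arrays: of 177 genes whose brightest probe passed the limit on the lower side and which had a further probe well above background, 17 (9.61%) passed the same limit at the next probe. The next probe lay below 0 in 104 of these 177 genes (58.8%), near the 57.8% of all measured genes below 0. The sign at a second probe therefore adds little. Rela has no second named probe.

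Relb encodes the subunit that pairs with the product of Nfkb2 downstream of receptors such as CD40. Its brighter probe had 139 on the array labelled SIRPα-KO and 184 on the WT array, a difference of -0.23 ± 0.21, less than 2 times its error. Its dimmer probe had 23.0 on the array labelled SIRPα-KO and 35.9 on the WT array, a difference of -0.47 ± 0.25. Nfkb2 had 25.6 on the array labelled SIRPα-KO and 33.0 on the WT array and differed by -0.20 ± 0.25, less than its error. The difference of Rela minus that of Relb was -1.14 ± 0.29, and that of Nfkb1 at its brighter probe minus that of Nfkb2 was -1.03 ± 0.32, on the log2 scale.

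Rel encodes c-Rel, a subunit prominent in lymphocytes and in cytokine genes of myeloid cells. Its probe had 4.13 on the array labelled SIRPα-KO and 6.04 on the WT array, not well above background on either, so no fold is given. The lowest signal well above background was 8.53 on the array labelled SIRPα-KO and 7.92 on the WT array.

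**Figure D1:**
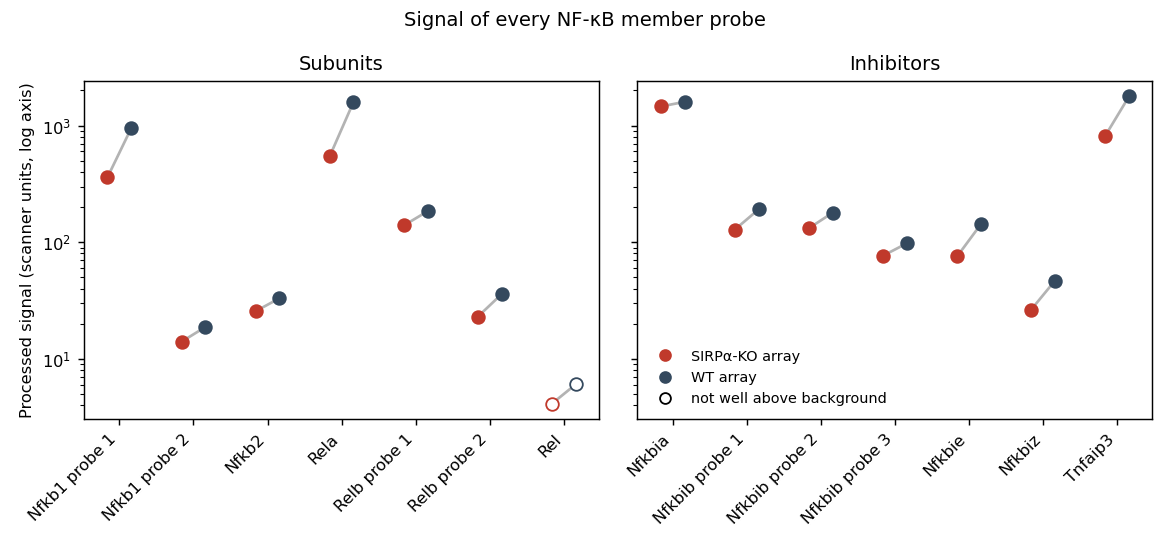
Processed signal (scanner units, log axis) of each of the 14 member probes on the array labelled SIRPα-KO (red) and the WT array (dark), 1 spot per point and a grey line joining the arrays; open points were not well above background. Rela and the brighter Nfkb1 probe had the largest gaps among subunits and Tnfaip3 among inhibitors, and Nfkbia had nearly equal signals; levels of different probes are not comparable.

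The inhibitors ranged from no difference to nearly 2-fold lower. None of 5 was at least 2-fold apart in either direction, against 5.53% lower and 3.11% higher of all genes, while 3 of 5 (Tnfaip3, Nfkbie and Nfkbiz) were at least 1.5-fold lower. The background at 1.5-fold was 13.5% of all measured genes on the lower side and 11.4% on the higher side. Counting all 9 measured members, 5 passed that limit on the lower side and 0 on the higher side.

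Nfkbia encodes IκBα, the inhibitor resynthesised within minutes to hours of activation. Its probe had 1457 on the array labelled SIRPα-KO and 1596 on the WT array, and after scaling it differed by 0.04 ± 0.20. This sign follows the scaling: it was -0.13 with no scaling and 0.37 after quantile normalization, so its direction is not settled on these arrays, and it stood above every other measured member in each of these settings. Its promoter, shown above, holds 1 κB consensus match and 2 matches to GGANTTTCC.

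Tnfaip3 encodes A20, the ubiquitin-editing enzyme that shuts off signalling upstream of IKK. Its probe had 819 on the array labelled SIRPα-KO and 1778 on the WT array, and it was 1.93-fold lower (-0.95 ± 0.20), just short of the 2-fold limit. The difference of Tnfaip3 minus that of Nfkbia was -0.99 ± 0.29 on the log2 scale. Both are known NF-κB targets, and κB consensus matches lie in the Nfkbia window and in 1 of the 2 Tnfaip3 windows.

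Nfkbie encodes IκBε, a further inducible inhibitor that restrains c-Rel and RelA dimers. It had 75.6 on the array labelled SIRPα-KO and 143 on the WT array, a difference of -0.75 ± 0.21, or 1.68-fold lower. Its window holds 1 κB consensus match, 106 to 97 bases before the start.

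Nfkbiz encodes IκBζ, a nuclear member of the family that, instead of holding dimers in the cytoplasm, assists a subset of secondary targets such as Il6. It had 26.5 on the array labelled SIRPα-KO and 46.8 on the WT array and differed by -0.65 ± 0.24, 1.57-fold lower. Il6 itself, from the target list, was 12.5-fold lower, and a link between the 2 differences was not tested.

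Nfkbib encodes IκBβ, which is less inducible than IκBα. Its 3 probes had 128, 132 and 76.6 on the array labelled SIRPα-KO, against 191, 179 and 97.7 on the WT array. The differences were -0.40 ± 0.21, -0.27 ± 0.21 and -0.18 ± 0.21, all below 0 and none past 2 times its error.

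**Figure D2:**
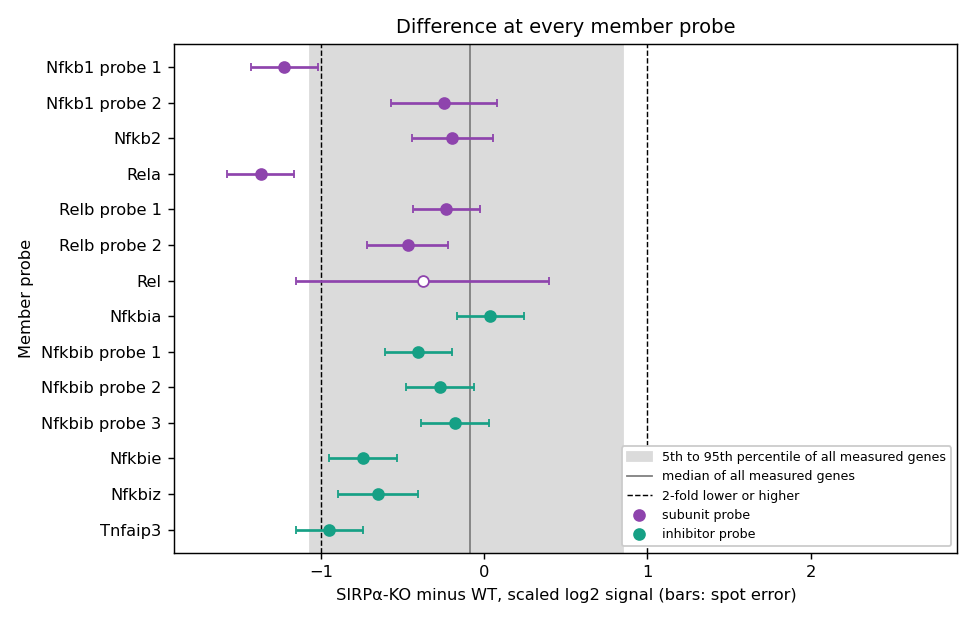
Scaled log2 difference (SIRPα-KO label minus WT) at each member probe, bars showing the spot error, with the 5th to 95th percentile band and median of all measured genes and dashed lines at 2-fold. Rela and the brighter Nfkb1 probe lie below the 2-fold line and outside this band of all genes. Neither lies below the 5th percentile of genes of like signal (10 classes, described below), -1.68 for Rela and -1.93 for Nfkb1. Tnfaip3, Nfkbie and Nfkbiz lie between the 2-fold line and the median. The open point, Rel, was not well above background.

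The median difference was -0.73 over the 4 measured subunits and -0.65 over the 5 inhibitors, against -0.09 over all measured genes. Lower differences were more frequent among bright genes, so each member was also set beside genes of like signal, in 10 classes of equal size. In the brightest class, the 2-fold limit was passed by 18.7% of genes on the lower side and 1.96% on the higher side, and the median was -0.33. Rela lay in this class, where 182 of 1584 genes (11.5%) were as low or lower. Nfkb1 lay in the next class, where 147 of 1583 (9.29%) were as low or lower. Tnfaip3 lay in the brightest class too, with 312 of 1584 (19.7%) as low or lower, and Nfkbia stood 0.37 above the median of that class.

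The other members were set beside their own classes in the same way. Nfkbie differed by -0.71 from the median of its class, with 6.25% of genes as low or lower, and Nfkbiz by -0.62, with 7.77%; Tnfaip3 also lay -0.62 from the median of its class. Nfkbib, Relb and Nfkb2 had 24.3%, 37.9% and 35.9% of their classes as low or lower. With the class median taken off each gene, the median difference was -0.57 for the subunits and -0.62 for the inhibitors.

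**Figure D3:**
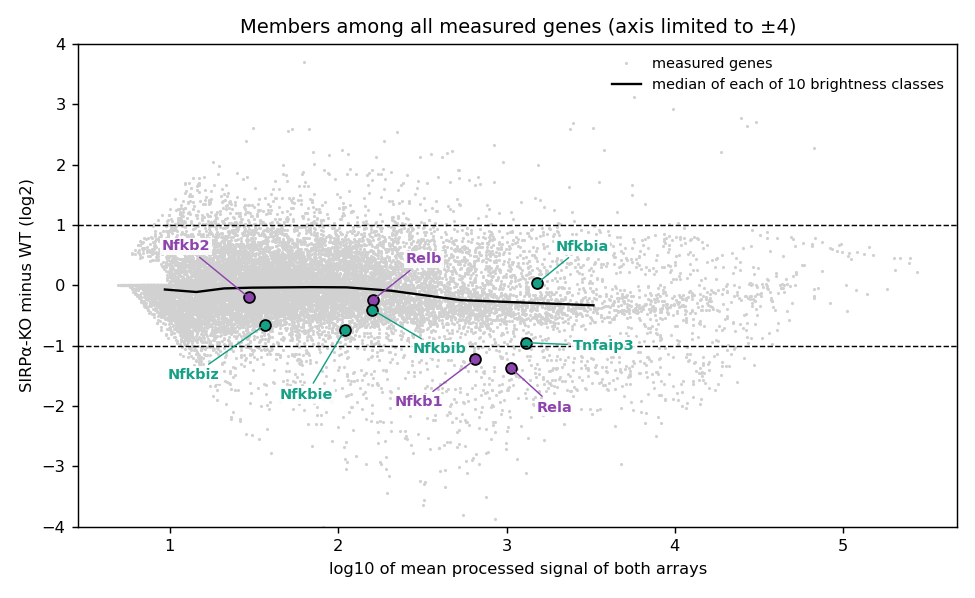
Log2 difference (SIRPα-KO label minus WT) against log10 of the mean processed signal for all measured genes (grey, 1 probe per gene), the 9 measured members in colour (subunits purple, inhibitors green); the black line joins the medians of the 10 brightness classes and dashed lines mark 2-fold. The line drops to -0.33 in the brightest class, where Rela and Tnfaip3 lie below it and Nfkbia above it.

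The signal around each member spot was examined for local shifts. Within 10 rows and 10 columns of the Rela spot, the median difference of 285 other spots was -0.07, and around the brighter Nfkb1 spot it was -0.05 over 274 spots. Around the other member spots it ranged from -0.18 to 0.14. Probes printed at least 8 times on each array gave a further gauge of spot error: for 71 such probes with a mean signal of 100 or more, the median SD of a difference between single spots was 0.15 on the log2 scale. For 165 dimmer ones, under 100 as Nfkbiz, Nfkb2 and the dimmest Nfkb1, Relb and Nfkbib probes were, it was 0.26.

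Regulators around the core lay, at the median, where all genes did. Of 49 listed kinases, adaptors, ubiquitin ligases, other IκB proteins and negative regulators, 42 were measured. At least 2-fold lower were 2 genes, at least 2-fold higher 3, and below 0 lay 23. The shares of all genes were 5.53%, 3.11% and 57.8%. Their median was -0.09, equal to that of all genes at this rounding. The other IκB family members Bcl3 and Nfkbid, nuclear cofactors of NF-κB, differed by -0.27 ± 0.20 and -0.15 ± 0.20.

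Upstream of the core, some single genes passed the 2-fold limit. Among 14 measured adaptors and ubiquitin ligases, Traf6, the ligase that Toll-like and interleukin-1 receptors use, had 993 on the array labelled SIRPα-KO and 3997 on the WT array and was 3.58-fold lower (-1.84 ± 0.20). Malt1, the protease of the CARD-BCL10-MALT1 complex, had 215 on the array labelled SIRPα-KO and 566 on the WT array and was 2.35-fold lower. Both were at least 2-fold lower in the 5 alternative settings that could move them. The other 3 settings concern the choice of probe or dim probes. Among genes of like signal, the share at least 2-fold lower was 18.7% for Traf6 and 11.2% for Malt1. The 5th percentile of these classes was -1.68 for Traf6, which lay below it, and -1.93 for Malt1, which did not. Traf1, itself an NF-κB target, differed by -0.64, and at the other end Sharpin, Card9 and Traf2 differed by 0.25, 0.23 and 0.12. A further Traf2 probe, however, differed by -0.92.

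Of 12 measured kinases and activators, Tab2, the ubiquitin-binding partner of the kinase TAK1, was the only one at least 2-fold apart, with 294 on the array labelled SIRPα-KO and 125 on the WT array (2.64-fold higher). The IKKα gene Chuk differed by -0.44 and the IKK scaffold gene Ikbkg by 0.34. Tab1 differed by -0.59 and Irak2 by 0.23. Ikbke, an IKK-related kinase, was at least 1.66-fold lower; its probe was well above background on the WT array alone. Ikbkb, which encodes IKKβ, was not well above background on either array.

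Of 14 measured negative regulators, Irak3 and Otud7b were at least 2-fold higher and none lower. The shares of all measured genes were 3.11% higher and 5.53% lower. Irak3, the inhibitory IRAK of macrophages, was at least 2.26-fold higher, with 15.9 on the array labelled SIRPα-KO and 6.97, not well above background, on the WT array. Otud7b, a deubiquitinase that limits the alternative pathway, had 45.5 on the array labelled SIRPα-KO and 24.5 on the WT array and was 2.09-fold higher. Irak3 differed by 0.17 after normexp background correction, and Otud7b by 0.43 after it and by 0.90 with no scaling. The median of the list was 0.11, and -0.06 with no scaling. Tnip1, which encodes a partner of A20, also lay lower, by -0.62 ± 0.20 and by -0.46 at a further probe, and Cops5 and Pdlim2 differed by -0.58 and -0.42. Zc3h12a, an RNase that degrades cytokine transcripts, differed by 0.34.

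The listed NF-κB target genes lay lower on the array labelled SIRPα-KO. Of 30 measured, 12 (40.0%) were at least 2-fold lower and only Ier3 was at least 2-fold higher, against 5.53% lower and 3.11% higher of all genes. Of the 30, 11 were among the genes of the 2 brightest classes, and these held 6 of the 12. Of all 3167 genes in those classes, 474 were at least 2-fold lower. Below 0 lay 27 of the 30, against 57.8% of all genes. The median was -0.59 (-0.76 to -0.26 over 8 alternative settings), or -0.44 after the median of each gene's brightness class was taken off. The list was written with earlier results on inflammatory genes of these arrays known, so its direction is not independent evidence.

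Among the 12, Csf2, the growth factor GM-CSF, was at least 3.17-fold lower, with 4.22, too dim to measure, on the array labelled SIRPα-KO and 30.5 on the WT array. Gadd45b, a stress-induced survival gene, had 136 on the array labelled SIRPα-KO and 349 on the WT array and was 2.28-fold lower. Clec4e, which encodes the lectin receptor Mincle, had 124 on the array labelled SIRPα-KO and 308 on the WT array and was 2.20-fold lower. After normexp the differences were -0.43 for Csf2, -0.86 for Gadd45b and -0.86 for Clec4e, and 6 of the 30 targets were at least 2-fold lower. The share of all genes at least 2-fold lower was then 2.83%, against 5.53% with the scaling used in the text. The other 9 were Cxcl10, Il6, Ccl5, Ccl3, Ccl4, Il1b, Cd40, Irf1 and Ptgs2, from 49.1-fold lower for the chemokine Cxcl10 to 2.10-fold lower for the transcription factor Irf1. A further Irf1 probe differed by -0.22.

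Some listed targets were nearly level or higher. Tnf, the prototype inflammatory cytokine, had 16.5 on the array labelled SIRPα-KO and 18.3 on the WT array and differed by 0.02 ± 0.31. Sod2, the mitochondrial superoxide dismutase, differed by -0.22 and Nos2, the inducible nitric oxide synthase, by -0.10. Ier3, an immediate-early gene, was 2.04-fold higher (on the log2 scale 0.24 after normexp and 0.86 with no scaling) and Bcl2l1, a survival gene, differed by 0.62, with a further probe at 0.01. Icam1, Cxcl1, Cd83 and Il1a were not well above background on either array.

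**Figure D4:**
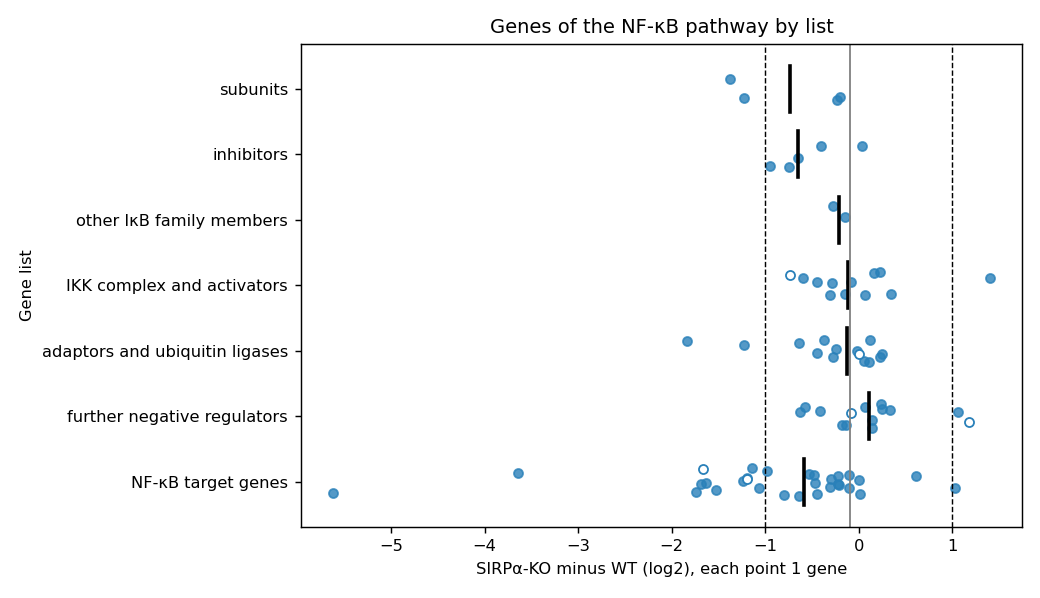
Log2 difference (SIRPα-KO label minus WT) of each measured gene, 1 point per gene, by list, with black bars for list medians, a grey line for the median of all genes and dashed lines at 2-fold; open points are lower bounds. The medians of subunits (-0.73), inhibitors (-0.65) and targets (-0.59) lie left of the grey line, and those of the kinase, adaptor and negative-regulator lists lie between -0.13 and 0.11.

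Markers of other cells that a sort can carry moved with these values in part, and their part in the result was not tested. Sums here are of processed signal before scaling, whereas log2 differences and folds are after it. The 75th percentile was 89.1 on the array labelled SIRPα-KO and 100.2 on the WT array. A small gap between sums, as for B cells without Cr2, therefore does not settle a direction. The summed signal of 5 measured plasma cell markers was 221 on the array labelled SIRPα-KO and 1440 on the WT array, with 2 of 5 (Jchain and Derl3) at least 2-fold lower. Without Jchain, the joining chain of secreted IgM and IgA, those sums were 47.4 on the array labelled SIRPα-KO and 96.6 on the WT array. Stromal and endothelial markers (4 measured) summed to 3783 on the array labelled SIRPα-KO and 13672 on the WT array, with Emcn and the brightest of 3 Ccl19 probes at least 2-fold lower; the other Ccl19 probes differed by 0.04 and -0.01. T cell markers (6 measured) summed to 16462 on the array labelled SIRPα-KO and 36293 on the WT array, with Cd8b1 at least 2-fold lower. B cell markers (6 measured) summed to 797 on the array labelled SIRPα-KO and 2044 on the WT array, with Cr2 at least 2-fold lower at its brighter probe and at 0.31 at the other. Without Cr2 the B cell sums were 470.1 on the array labelled SIRPα-KO and 497 on the WT array; 3 of the 6 lay above 0, and the median difference was 0.07. Conventional dendritic cell markers (6 measured) summed to 652 on the array labelled SIRPα-KO and 1420 on the WT array, with Flt3 at least 2-fold lower. Neutrophil markers (4 measured) summed to 139 on the array labelled SIRPα-KO and 217 on the WT array, with S100a8 at least 2-fold lower. Without S100a8 the neutrophil sums were 106 on the array labelled SIRPα-KO and 131 on the WT array. Macrophage markers (12 measured) summed to 18140 on the array labelled SIRPα-KO and 14488 on the WT array, with Cd5l and C1qc at least 2-fold higher; 7 of the 12 lay below 0, the median difference was -0.11, and without Adgre1 the sums were 7734 on the array labelled SIRPα-KO and 7658 on the WT array. Single genes carried other sums too: without Ccl19 the stromal and endothelial sums were 538 on the array labelled SIRPα-KO and 757 on the WT array, and without Cd8b1 the T cell sums were 6178 on the array labelled SIRPα-KO and 8398 on the WT array. Without Flt3 the dendritic cell sums were 136 on the array labelled SIRPα-KO and 203 on the WT array. In the NK cell and plasmacytoid dendritic cell lists no gene was 2-fold apart at its brightest probe, though a further probe of the NK cell gene Nkg7 differed by -1.43, and among platelet markers only Gp1ba was (higher). The monocyte gene Ccr2 and the endothelial gene Cdh5 were not well above background on either array.

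The member differences kept their sign under each alternative way of processing for every measured member except Nfkbia. Rela was at least 2-fold lower in all 8 alternatives, from -1.54 to -1.02; 3 of these concern the choice of probe or dim probes and leave its value as it was. Nfkb1 was at least 2-fold lower in 4 of 8, from -1.39 to -0.25, the last at its dimmer probe. Tnfaip3 ranged from -1.12 with no scaling to -0.64 after quantile normalization. Among genes at least 2-fold apart, higher ones made up 36.0%, 48.0% after quantile normalization and 20.5% with no scaling, so the background itself moves with the scaling.

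**Figure D5:**
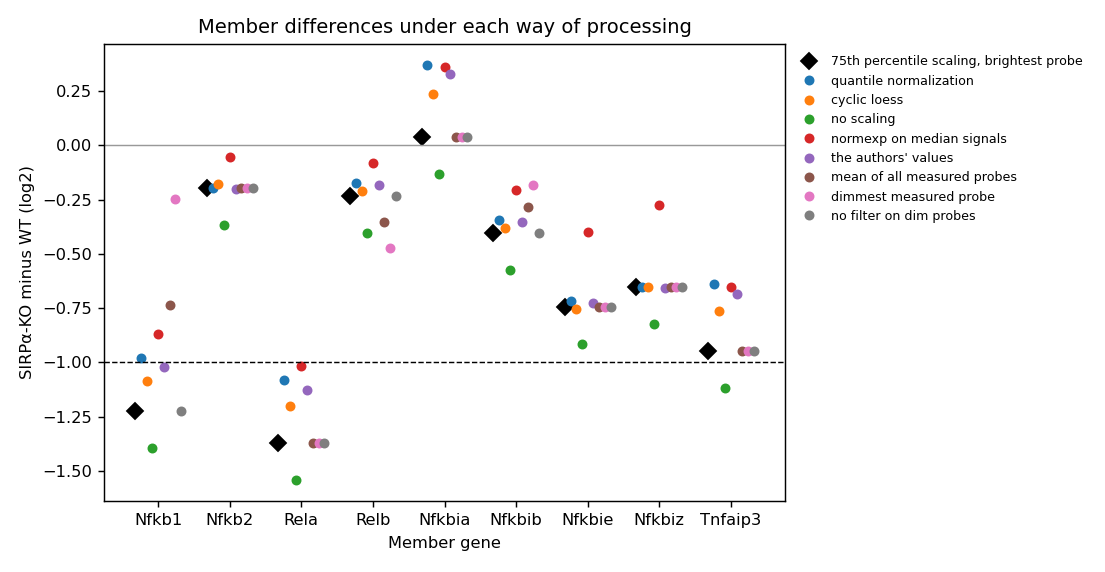
Log2 difference (SIRPα-KO label minus WT) of each measured member gene under the scaling used in the text (black diamonds) and 8 alternatives (coloured points), with a dashed line at 2-fold lower and a grey line at 0. All Rela points lie below the 2-fold line, Nfkb1 points lie on both sides of it, and Nfkbia points lie on both sides of 0.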

How the data were processed

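The authors deposited 1 Agilent Feature Extraction 11.0.1.1 table per array (design 26655, mm9 named), whose spot brightness is intensity on a linear scale, background-subtracted within the array per the file headers. A further deposited table holds log2 values by the authors; they did not fall at any step between probes ordered by the scanner signal of the same array, had a column median of 4.56 on both, and how they were normalized is not given in the sources. Here the log2 75th percentile of each array was subtracted from log2 processed signal, without control or outlier-flagged spots (167 on the array labelled SIRPα-KO and 190 on the WT array, of 43020 each); no spot was saturated. Accessions were matched to RefSeq symbols (27206 of 39386 probes). A gene was read at its brightest probe and counted as measured where either array had it well above background. A dim side kept its value, raised to the floor (the lowest value well above background) where it lay under that, giving a lower bound ("at least"); where this overtook the bright side the difference was set to 0. A fixed rule of size, 2-fold, replaced a test. The number of arrays limits the precision. Member genes and gene lists were chosen with earlier results of these data known. All members were named, with list genes at least 2-fold apart and the extremes of each list; further target and marker genes named for context were chosen after their values were seen. No gene was named for likeness of pattern, which 2 arrays cannot measure. Some marker results are not reported here. Counting steps were tested on simulated data. Alternatives used limma 3.58.1 in R 4.3.3 (quantile, cyclic loess and normexp with offset 50) and Python 3.11.15.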

Additional observations from a re-analysis of the deposited data

How the results depend on the processing

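No paired analysis was possible because each genotype had 1 array and no result comes from a test. Among members, 2 were at least 2-fold lower; this count was 1 after quantile normalization, 1 after normexp, 1 with the mean of all probes, 1 with the dimmest probe, 3 with no scaling (Tnfaip3 added), 5 with a limit of 1.5-fold and 0 with one of 3-fold. Those limits change it by construction. With the mean of all probes and with the dimmest probe, Nfkb1 fell short of the limit, at -0.74 and -0.25. Rela stayed at -1.37 in both. For the other settings the cause was not tested. The subunit median of -0.73 was -0.48 after normexp, -0.36 with the dimmest probe and -0.38 with no filter on dim probes, which adds Rel. The inhibitor median of -0.65 was -0.27 after normexp. No scaling moved the median of all genes to -0.26, against -0.09. Of all genes, 876 were at least 2-fold lower, and 1657 with no filter and 448 after normexp; 493 were at least 2-fold higher, and 306 with no scaling, 204 after normexp and 879 with no filter. Normexp was run on median signals, chosen after the data were seen; on mean signals it was not run. Of 72 member differences under alternatives, 17 moved by more than their error. Each member rests on 1 spot per probe and array, and Rel lies below what these arrays resolve.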
